A study of Homo sapiens with 17 samples.

Results

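Open chromatin after treatment with 2 µM 5-azacytidine was set against that of untreated HepG2 cells in 6 ATAC-seq libraries, 3 per group. All 58372 peaks with deposited read counts were used, each with its deposited annotation and gene symbol. They are the counted part of a list of 63621 consensus peaks. The other 5249 were not analysed here. HepG2 is a line grown from a human hepatocellular carcinoma, labelled as hepatocyte and of WT genotype. Cells of both groups stayed in culture for 4 days with the medium replaced each day, with 5-azacytidine at 2 µM or at 0 µM, and cells treated with 10 µM gave 2 further ATAC libraries. RNA-seq at the same doses, 3 libraries each, served as a second readout that the peak calls did not use.

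5-azacytidine is a cytidine analogue that is built into RNA and DNA, where it traps DNA methyltransferases on the strand, so that methylation is diluted as cells divide. DNA methylation is dense at most CpG sites of the genome and sparse at CpG-rich promoters, the CpG islands, and it can keep factors off their binding sites. ATAC-seq measures where chromatin is open: a transposase cuts accessible DNA, and reads pile up at promoters, enhancers and other regulatory sites. HepG2 cells keep part of the programme of hepatocytes, the liver cells that secrete most plasma proteins.

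Promoter sequences of 8 genes are given because they show the contrast the results below come back to. The first 4 belong to promoter peaks that rose at 2 µM, hold few CpG sites, and contain the binding motif of AP-1, the dimer of FOS and JUN proteins. In these lines capitals mark the motif TGANTCA, on either strand, where N is any base. Each is a window of 300 bases, from 250 bases before a gene's start site to 50 after it, read 5′ to 3′ on the gene's strand from RefSeq on GRCh38.p14. The windows are chr17:77404827-77405126 on the plus strand for the cytoskeletal gene SEPTIN9, chr5:150497529-150497828 on the plus strand for the heparan sulfate enzyme NDST1, chr3:11136988-11137287 on the plus strand for the histamine receptor HRH1, and chr1:153565795-153566094 on the minus strand for the calcium-binding protein S100A2. NDST1 holds 2 matches and each of the others 1.
SEPTIN9: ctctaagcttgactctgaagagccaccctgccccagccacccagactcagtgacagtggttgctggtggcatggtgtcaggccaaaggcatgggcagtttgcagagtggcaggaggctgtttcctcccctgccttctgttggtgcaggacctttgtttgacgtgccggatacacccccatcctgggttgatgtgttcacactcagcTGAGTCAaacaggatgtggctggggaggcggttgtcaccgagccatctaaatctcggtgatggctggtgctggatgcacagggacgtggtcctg
NDST1: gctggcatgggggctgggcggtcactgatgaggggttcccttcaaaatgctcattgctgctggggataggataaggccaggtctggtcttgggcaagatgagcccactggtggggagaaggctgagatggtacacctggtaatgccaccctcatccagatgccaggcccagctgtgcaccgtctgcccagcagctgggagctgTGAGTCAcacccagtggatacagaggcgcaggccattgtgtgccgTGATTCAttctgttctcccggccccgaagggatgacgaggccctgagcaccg
HRH1: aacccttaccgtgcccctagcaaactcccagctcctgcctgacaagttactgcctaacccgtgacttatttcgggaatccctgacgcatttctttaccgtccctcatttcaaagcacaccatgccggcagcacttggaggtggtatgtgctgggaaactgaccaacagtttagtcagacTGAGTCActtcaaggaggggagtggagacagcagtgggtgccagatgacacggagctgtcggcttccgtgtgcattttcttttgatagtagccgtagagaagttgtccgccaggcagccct
S100A2: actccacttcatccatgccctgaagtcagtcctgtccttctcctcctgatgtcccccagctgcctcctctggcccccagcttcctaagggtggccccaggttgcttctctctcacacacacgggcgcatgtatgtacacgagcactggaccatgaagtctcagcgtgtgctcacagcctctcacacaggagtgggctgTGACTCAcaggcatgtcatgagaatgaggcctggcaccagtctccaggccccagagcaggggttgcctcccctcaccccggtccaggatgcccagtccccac

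In the other 4 windows capitals mark every CpG. BCL2A1 (chr15:79971147-79971446, minus strand), which encodes an anti-apoptotic protein of the BCL2 family, holds 2 CpG sites. The protease inhibitor gene LXN (chr3:158672599-158672898, minus strand) holds 9 and the trafficking GTPase gene RAB34 (chr17:28717819-28718118, minus strand) holds 22. The peaks at these 3 rose. DIXDC1 (chr11:111937093-111937392, plus strand), a regulator of WNT signalling, holds 37, and its peak fell. All 8 were picked after their values were seen.
BCL2A1: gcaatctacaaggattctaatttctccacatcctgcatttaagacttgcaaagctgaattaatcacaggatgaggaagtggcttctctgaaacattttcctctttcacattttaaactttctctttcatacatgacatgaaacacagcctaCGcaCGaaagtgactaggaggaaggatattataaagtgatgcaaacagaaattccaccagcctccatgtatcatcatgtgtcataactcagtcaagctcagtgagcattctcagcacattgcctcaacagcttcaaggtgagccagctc
LXN: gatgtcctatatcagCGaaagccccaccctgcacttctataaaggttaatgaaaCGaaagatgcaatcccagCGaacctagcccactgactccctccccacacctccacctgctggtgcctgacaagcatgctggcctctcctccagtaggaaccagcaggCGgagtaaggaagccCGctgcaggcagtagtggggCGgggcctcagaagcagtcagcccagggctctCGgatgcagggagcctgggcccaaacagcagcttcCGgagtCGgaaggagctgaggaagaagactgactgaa
RAB34: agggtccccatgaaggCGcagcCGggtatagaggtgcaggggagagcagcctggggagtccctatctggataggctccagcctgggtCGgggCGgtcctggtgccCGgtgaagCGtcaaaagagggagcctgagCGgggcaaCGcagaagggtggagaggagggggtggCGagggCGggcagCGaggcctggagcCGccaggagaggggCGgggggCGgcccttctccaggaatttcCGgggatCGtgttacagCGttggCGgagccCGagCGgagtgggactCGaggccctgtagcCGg
DIXDC1: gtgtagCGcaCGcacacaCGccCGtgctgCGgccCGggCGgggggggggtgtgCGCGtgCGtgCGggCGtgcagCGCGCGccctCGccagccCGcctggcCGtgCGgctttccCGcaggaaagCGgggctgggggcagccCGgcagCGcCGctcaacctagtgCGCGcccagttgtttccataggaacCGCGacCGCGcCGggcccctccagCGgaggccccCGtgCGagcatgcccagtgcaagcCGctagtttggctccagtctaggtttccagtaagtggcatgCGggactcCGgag

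The libraries at 2 µM held 2907068, 2896671 and 7042886 reads in peaks, and the untreated libraries 4054573, 7333355 and 5227211. Levels are given in CPM, reads of a peak per 1000000 reads in all peaks after TMM scaling, so they are shares of the reads in peaks. The reads outside peaks are not known here, and a rise or fall of all peaks together would not be seen. Across peaks the 2 µM libraries correlated with each other at r of 0.918 to 0.939, the 0 µM libraries at 0.956 to 0.971, and libraries of different groups at 0.831 to 0.897. By promoter peak, 8 of 10 hepatocyte, 5 of 10 cholangiocyte, 4 of 10 leukocyte, 2 of 10 fibroblast or stellate cell and 0 of 10 endothelial markers were found, and by any assigned peak 10, 10, 7, 3 and 8 in the same order. The promoter peaks of hepatocyte markers summed to 344 to 385 CPM at 2 µM and 416 to 429 CPM at 0 µM, those of cholangiocyte markers to 83.5 to 85.9 CPM at 2 µM and 82.7 to 98.5 CPM at 0 µM, and those of leukocyte markers to 132 to 179 CPM at 2 µM and 155 to 179 CPM at 0 µM. The labels speak of biological replicates without saying whether each library came from its own culture, so a p-value covers no more than the spread of the libraries at hand. In such bulk samples fewer cells with an open site and less signal per cell cannot be told apart.

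Among the counted peaks, more opened than closed at 2 µM. The list pools peaks named for the untreated and the treated doses, so this balance holds for the list as it was made. By edgeR's quasi-likelihood test at an adjusted p under 0.05, 9044 of the 58372 peaks rose, which is 15.5% of them, and 4260 fell, which is 7.3%. Rises were larger: the risen peaks changed by a median of 1.01 on the log2 scale, 4603 of them by 1 or more and 390 by 2 or more, while the fallen peaks changed by a median of -0.64, with 513 falling by 1 or more and 7 by 2 or more. The median change over all peaks was 0.0196. The median risen peak held 11.7, 11.7 and 10.5 CPM in the 2 µM libraries, against 5.58, 4.76 and 5.68 CPM in the 0 µM libraries. The median fallen peak held 14.8, 13.1 and 12.8 CPM at 2 µM, against 22.3, 21.8 and 20.8 CPM at 0 µM. The 2 µM and 0 µM libraries did not overlap at 8603 of the risen peaks (95.1%) and 3987 of the fallen (93.6%), against 38.6% of all peaks.

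The balance of these counts moved with single libraries. Without 0 µM replicate 2 the number of rises was 5324. The number of falls was 2569 without 2 µM replicate 2, 2405 without 2 µM replicate 3, and 7051 or 7029 without one or the other of the 10 µM libraries, which enter through the shared spread and scaling. Rises made up 68% of all calls in the full fit, 56.5% when only the 6 libraries at 0 and 2 µM were fitted, 54.9% after cyclic loess scaling, which removes a trend of the change with the level, and 53.8% when replicate numbers were blocked.

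Each consensus peak carries 1 dose in its deposited name. How the names were given is not stated in the sources used here. If a name records the dose whose signal gave the peak, the naming itself sets the direction, so the counts by name are a description with no test. The balance of rises and falls over all peaks then also depends on how many listed peaks bear each name. Of 16805 peaks named for 2 µM, 3221 rose and 23 fell. Of 22732 named for 10 µM, 5821 rose and 224 fell, and of 18835 named for 0 µM, 2 rose and 4013 fell.

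A smaller share of promoter peaks than of others was called. The deposited annotation calls a peak promoter from 1000 bp upstream to 100 bp downstream of a start site, and names the gene with the nearest start site, which for peaks elsewhere can differ from the gene whose exon or intron they lie in. Of 19763 promoter peaks, 1391 rose (7.04%) and 991 fell (5.01%), while of the 38609 others 7653 rose (19.8%) and 3269 fell (8.47%). Rises were most frequent in 3′ UTR peaks, at 653 of 2514 (26%), and in introns after the first, at 2834 of 11515 (24.6%). Intergenic peaks beyond 50 kb of a start site followed with 19.3% of 1723, exons with 18.8% of 3962 and first introns with 18.1% of 9298. Of intergenic peaks within 50 kb 14.9% of 8560 rose, and of 121 peaks annotated as downstream 19%. Falls were most frequent beyond 50 kb, at 13.4%, and least frequent in 5′ UTR peaks, at 2.51% of 916. Within the promoter class, peaks that contain the start site itself rose in 5.05% of 14761 and fell in 5.28%, whereas those beside it rose in 12.9% of 5002 and fell in 4.22%.

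**Figure D1:**
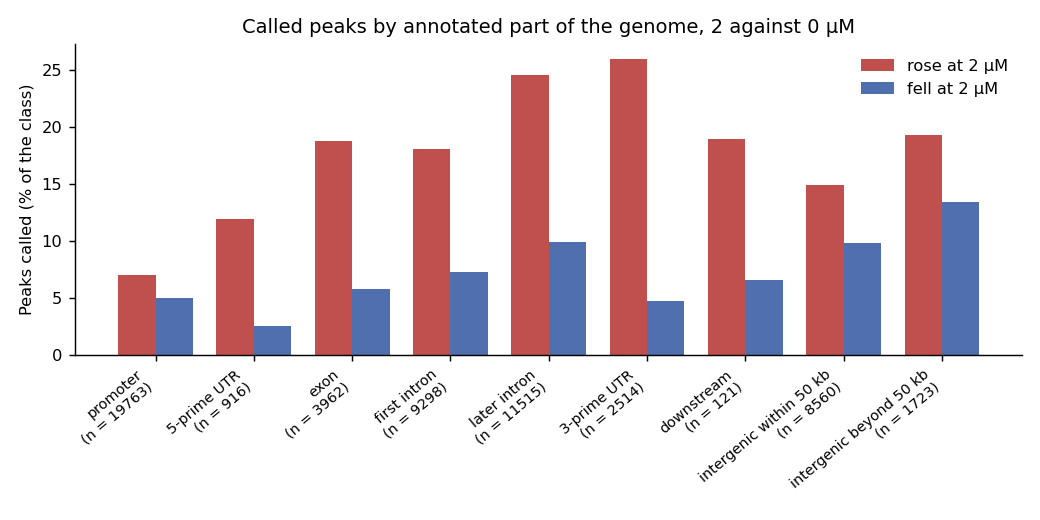
Share of peaks called at 2 µM against 0 µM in each annotated part of the genome, in percent of the peaks of that part (n under each name), with rises in red and falls in blue. Promoter peaks have the lowest bar for rises at 7.04%, and 3′ UTR peaks the highest at 26%.

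The share of 3′ UTR peaks that rose was above that of promoter peaks in each of the 16 other fits run, 15.8% to 27.7% against 3.98% to 7.37%. Which direction prevailed at promoters did depend on the fit. Falls outnumbered rises there, 2077 to 1400, when only the 6 libraries at 0 and 2 µM were used, 1501 to 1240 with RLE size factors, 1346 to 1144 without 0 µM replicate 1, and 2145 to 1390 or 2139 to 1394 without a 10 µM library. Promoter rises were 787 without 0 µM replicate 2. Promoter falls were 566 without 2 µM replicate 1, 450 without 2 µM replicate 2, and 599 without 0 µM replicate 2. With blocked replicate numbers 1434 promoter peaks rose and 2679 fell. The direction that prevailed in intergenic peaks depended on the fit too. After cyclic loess scaling 9.72% rose and 12.4% fell within 50 kb, and 9.05% rose and 17% fell beyond 50 kb. Without 0 µM replicate 2 the shares were 7.71% and 8.03% within 50 kb, and 10.3% and 10.5% beyond.

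Shares of reads moved in the same way and within the limits of 3 libraries against 3. Promoter peaks took 41.3, 43 and 45.2% of the reads in peaks at 2 µM, against 44.8, 46.6 and 45.4% at 0 µM. The means were 43.2 ± 1.96% and 45.6 ± 0.909% (SD, n = 3 each), and the exact permutation test, two-sided, gave p = 0.2 (0.24 after adjustment over the 6 classes). 3′ UTR peaks took 4.3 ± 0.225% at 2 µM and 3.77 ± 0.185% at 0 µM, and exon peaks 6.23 ± 0.123% and 5.86 ± 0.151%, without overlap between the groups in either class. Their exact p of 0.1 (adjusted 0.2) is the smallest this design allows, so no class could pass 0.05.

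Rises were most frequent among peaks that were weak in untreated cells, and falls, except after loess scaling, among strong ones. Of 7669 peaks under 5 CPM at 0 µM, 55% rose and 0.013% fell. From 5 to 10 CPM 27% rose and 1.77% fell, from 10 to 20 CPM 6.46% rose and 7.7% fell, from 20 to 40 CPM 1.96% rose and 12.5% fell, and from 40 CPM upwards 0.541% rose and 18.7% fell. The level at 0 µM is part of the fold change as well as of this grouping, so the grouping and the change share the untreated values. The peak list also pools peaks named for the treated doses, so a peak weak at 0 µM may be listed because of its treated signal. How much of the pattern comes from this was not tested. After cyclic loess scaling 26.7%, 19.6%, 6.38%, 3.74% and 2.68% rose in these ranges from weak to strong, and 2.2%, 7.35%, 11.8%, 9.38% and 8.15% fell, so that falls were then most frequent from 10 to 20 CPM. The shares also moved with single libraries. Of peaks of 40 CPM or more, 18.7% fell in the fit of all libraries, 32.4% and 32% without 10 µM replicate 1 and 2, 11.9% and 10.3% without 2 µM replicate 2 and 3, 11.9% without 0 µM replicate 2, and 42.3% with blocked replicate numbers. Of peaks under 5 CPM 34.9% rose without 0 µM replicate 2.

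**Figure D2:**
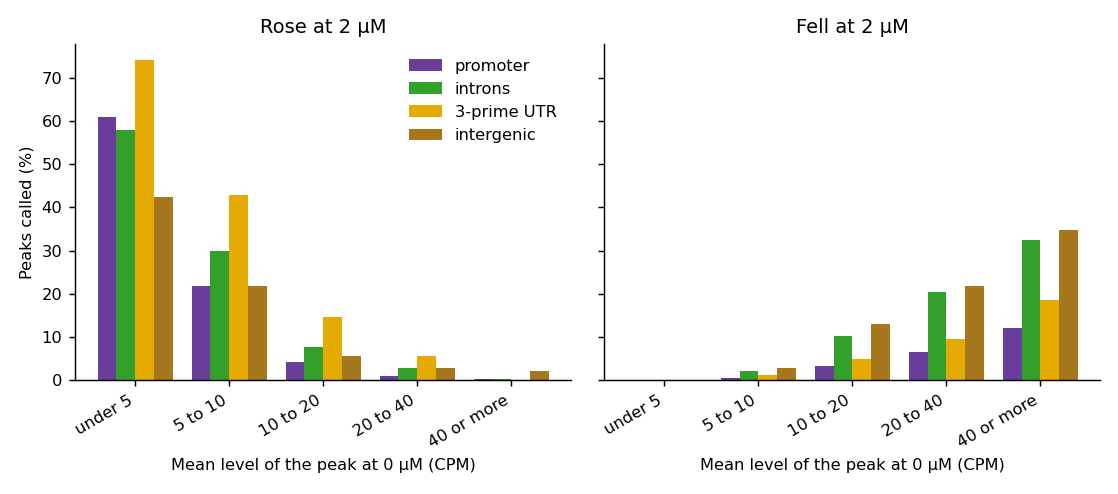
Share of peaks that rose (left) and fell (right) at 2 µM, in percent, by the mean level of the peak at 0 µM in CPM, for promoter, intron, 3′ UTR and intergenic peaks. Rises make up 74.1% of the weakest 3′ UTR peaks and 60.8% of the weakest promoter peaks, against 0.332% of the strongest promoter peaks, and among the strongest peaks falls reach 34.7% of intergenic but 12% of promoter peaks.

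Within a range of untreated level the shares differed between parts of the genome. Among peaks under 5 CPM, 74.1% of 266 in 3′ UTRs, 60.8% of 771 at promoters, 58% of 4060 in introns and 42.4% of 2009 intergenic peaks rose. The levels were not equal within this range: the median at 0 µM was 3.24 CPM in 3′ UTRs, 3.46 CPM at promoters, 2.77 CPM in introns and 2.64 CPM in intergenic peaks. From 5 to 10 CPM the shares were 42.9%, 21.8%, 29.8% and 21.8% in the same order. Among peaks of 40 CPM or more, 12% of 2409 at promoters fell, against 32.4% of 726 in introns and 34.7% of 323 intergenic peaks.

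The 12 promoter peaks with the largest rises, chosen among calls whose groups do not overlap, lay near genes of unlike function. These genes were PANK4, PRKCZ, H3C12, EIPR1, STRN4, TSC2, CREBBP, RTEL1, GATA2, DPP9 and the small nucleolar RNAs SNORA49 and SNORA80D, and their changes ran from 2.81 to 3.32 on the log2 scale. The peak at PANK4 (chr1:2521147-2521647), which encodes a pantothenate kinase family member without kinase activity, held 18.6, 14.4 and 14.7 CPM at 2 µM, against 1.7, 1.63 and 1.33 CPM at 0 µM. The groups were far apart, and the change was 3.32 (SE 0.289, adjusted p = 2.25e-09). At TSC2 (chr16:2082108-2082608), whose product restrains the growth kinase mTORC1, the level was 33, 34.7 and 36.8 CPM at 2 µM, against 5.34, 4.21 and 4.55 CPM at 0 µM. This promoter rise had the smallest adjusted p of all promoter peaks, 1.45e-11, with a change of 2.92 (SE 0.19).

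PRKCZ, an atypical protein kinase C, had a promoter peak at chr1:2133052-2133552 with 12.7, 16.8 and 17.9 CPM at 2 µM, against 2.43, 0.816 and 2.27 CPM at 0 µM. It rose by 3.23 (SE 0.309, adjusted p = 9.67e-09). GATA2, a transcription factor best known from blood stem cells, stood at 12.4, 12.7 and 12 CPM at 2 µM and 1.46, 1.5 and 2.08 CPM at 0 µM, a rise of 2.86 (SE 0.28, adjusted p = 1.26e-08). RTEL1, a helicase that protects telomeres, stood at 29.9, 25.1 and 24.3 CPM at 2 µM and 4.85, 4.08 and 1.7 CPM at 0 µM. In these 3 the lowest treated library lay above the highest untreated one.

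Several of these openings were seen at 2 µM but hardly at 10 µM. The dose libraries share the untreated group, so only levels are given. At 10 µM the TSC2 peak held 6.71 and 9.79 CPM, the RTEL1 peak 2.15 and 3.91 CPM and the PANK4 peak 2.95 and 5.65 CPM, all below the lowest library at 2 µM. SNORA80D held 31.6, 32.7 and 31.8 CPM at 2 µM, and 4.7 and 6.09 CPM at 10 µM. DPP9, a dipeptidyl peptidase, held 11.7, 12.7 and 9.82 CPM at 2 µM and more at 10 µM, with 21.6 and 20.4 CPM.

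**Figure D3:**
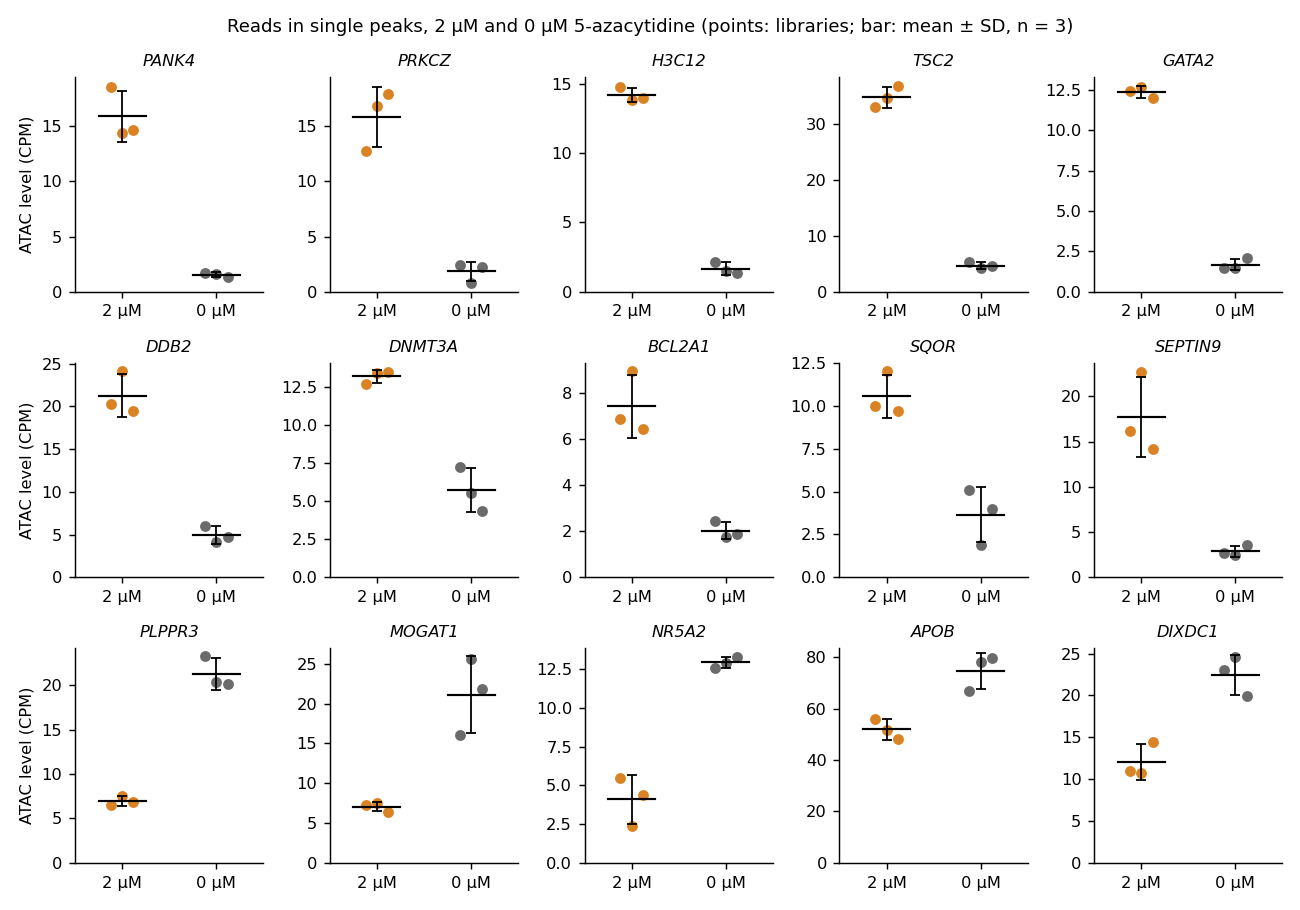
ATAC level in CPM of 15 single peaks in the 3 libraries at 2 µM (orange) and the 3 at 0 µM (grey), with the mean and SD (n = 3). In each panel the groups do not overlap; PANK4 to SEPTIN9 rose and PLPPR3 to DIXDC1 fell.

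Outside promoters the rises were larger still. A peak in exon 3 of 10 at COLGALT1, which adds galactose to collagen, stood at 9.97, 18.2 and 13.8 CPM at 2 µM, against 1.7, 0.408 and 0.758 CPM at 0 µM, a rise of 4.01 (SE 0.348, adjusted p = 2.25e-09). Intron 2 of 29 of SEC16A, which builds exit sites of the endoplasmic reticulum, held a peak that rose by 3.67 (SE 0.325, adjusted p = 3.29e-09). At PCGF3, a subunit of variant Polycomb complexes, a peak in intron 6 of 10 held 18.2, 21 and 17.6 CPM at 2 µM and 2.18, 1.63 and 0.947 CPM at 0 µM, a rise of 3.57 with an adjusted p of 9.88e-11. A 3′ UTR peak assigned to PDCD6, a calcium-binding protein, rose by 3.50 (SE 0.268, adjusted p = 2.99e-10). All 4 had groups that do not overlap.

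Stronger sites opened too. Downstream of MIR21, a microRNA gene often overexpressed in tumours, a peak at chr17:59843910-59844410 held 115, 116 and 84.3 CPM at 2 µM, against 25.5, 23.1 and 38.3 CPM at 0 µM. It rose by 1.85 (SE 0.169, adjusted p = 5.25e-09). A second peak there, at chr17:59842357-59842857, held 64.3, 58.1 and 40.5 CPM at 2 µM and 17, 19.4 and 25 CPM at 0 µM, a rise of 1.37 (SE 0.17, adjusted p = 6.04e-07). The libraries of the groups did not overlap at either. A 3′ UTR peak next to MERTK, a receptor kinase used in clearing dead cells, held 42.6, 52.6 and 46 CPM at 2 µM and 9.94, 15.8 and 14.6 CPM at 0 µM, a rise of 1.77 (SE 0.159, adjusted p = 3.5e-09). Upstream of PROC, which encodes the anticoagulant protein C made in liver, a peak held 29.2, 33.7 and 34.1 CPM at 2 µM and 10.2, 9.92 and 10.2 CPM at 0 µM (log2 1.69, SE 0.162, adjusted p = 1.05e-08).

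Among the largest promoter falls were those at MOGAT1, NR5A2, PLPPR3, PLA2G3, PER2, THADA, CPSF2, SOX9-AS1, LINC03034, SOX6 and CRIPTO, with changes of -1.17 to -1.63. NR5A2 is a nuclear receptor of bile acid and cholesterol genes in liver. One of its promoter peaks (chr1:200027226-200027726) held 5.5, 2.41 and 4.36 CPM at 2 µM, against 12.6, 12.9 and 13.3 CPM at 0 µM, with no overlap, and fell by 1.63 on the log2 scale (SE 0.245, adjusted p = 1.06e-05). MOGAT1 makes diacylglycerol from monoacylglycerol. Its promoter peak (chr2:222670398-222670898) held 7.22, 7.56 and 6.41 CPM at 2 µM, against 16, 25.6 and 21.8 CPM at 0 µM, and the change was -1.63 (SE 0.207, adjusted p = 8.22e-07).

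PLPPR3, of the phospholipid phosphatase-related family, had 6.53, 7.56 and 6.82 CPM at 2 µM and 23.3, 20.4 and 20.1 CPM at 0 µM at its promoter peak, a change of -1.60 (SE 0.23, adjusted p = 5.43e-06). PER2, a repressor of the circadian clock, changed by -1.34 (SE 0.286, adjusted p = 0.000798), and SOX6, a transcription factor, by -1.19 (SE 0.228, adjusted p = 0.000251). Falls elsewhere were larger. An intron peak nearest to WIPI1, an autophagy protein, held 3.09, 1.38 and 1.77 CPM at 2 µM, against 13.1, 13.1 and 11.9 CPM at 0 µM, and changed by -2.66 (SE 0.295, adjusted p = 9.42e-08).

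Among intergenic falls, one of the clearest lay far upstream of CCND1, the gene of cyclin D1, and held 5.84, 6.19 and 4.36 CPM at 2 µM, against 19.2, 17.1 and 18 CPM at 0 µM (log2 -1.79, SE 0.216, adjusted p = 3.77e-07). Another, 291652 bp from the start of the urea cycle gene CPS1, held 3.44, 3.78 and 2.05 CPM at 2 µM and 13.8, 11.7 and 11.9 CPM at 0 µM (log2 -2.14, SE 0.273, adjusted p = 9.5e-07). The treated libraries lay below all untreated ones at both.

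Peaks at genes for secreted liver proteins fell at 52 of 247 (21.1%) and rose at 13 (5.26%), beside 7.3% and 15.5% of all peaks, with a median change of -0.21. Among their 75 promoter peaks 15 fell and 4 rose, with a median of -0.23, beside -0.0804 over all promoter peaks. Falls outnumbered rises in this list in each of the fits run, but barely without 2 µM replicate 3. There 19 peaks fell and 18 rose, and at promoters 6 fell and 5 rose. The number of fallen peaks was 19 without 2 µM replicate 3 and 30 without 2 µM replicate 2, and fallen promoter peaks were 6 without either one, 9 without 0 µM replicate 2 and 25 without either 10 µM library. Hepatocyte markers, some of them the same genes, had 25 falls and 4 rises among 96 peaks. The falls of these markers were 10 without 2 µM replicate 3 and 15 without 2 µM replicate 2. APOB, a member of both lists, alone held 52 peaks, with 15 falls and 1 rise. By gene, 5 hepatocyte markers had a fallen peak and 4 a risen one. In the list of secreted proteins 26 genes had a fallen peak and 11 a risen one. Other liver lists had no such excess of falls over all their peaks. Liver transcription factors had 26 rises (12%) and 18 falls (8.29%) among 217 peaks, and 0 and 3 among 60 promoter peaks. Cytochromes P450 and conjugating enzymes had 12 rises (12.1%) and 6 falls (6.06%) among 99 peaks, and 1 and 1 among 33 promoter peaks.

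Among the genes for secreted liver proteins, APOB encodes the structural protein of very low density lipoprotein. Its stronger called promoter peak (chr2:21043934-21044434) held 56, 51.6 and 48.1 CPM at 2 µM, against 66.7, 78 and 79.5 CPM at 0 µM. The groups did not overlap, and it fell by 0.54 on the log2 scale (SE 0.128, adjusted p = 0.00232). A weaker APOB promoter peak, starting at chr2:21044710, went the other way. It held means of 11.9 CPM at 2 µM and 7.13 CPM at 0 µM, and rose by 0.70 (SE 0.236, adjusted p = 0.0296). Promoter peaks of the coagulation factors VII and X fell. F7 changed by -0.60 (SE 0.145, adjusted p = 0.00281) and F10 by -0.72 (SE 0.158, adjusted p = 0.00104). F12, which encodes coagulation factor XII, rose by 0.84 (SE 0.204, adjusted p = 0.00278), with 12.7, 12 and 13.2 CPM at 2 µM and 7.03, 6.66 and 7.76 CPM at 0 µM. The iron carrier TF changed by -0.53 (adjusted p = 0.00717), a call lost without 2 µM replicate 2 (adjusted p = 0.0666), and the thyroid hormone carrier TTR by -0.58 without passing (adjusted p = 0.0654, but 0.0437 with RLE size factors and 0.0108 without 2 µM replicate 1).

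APOB was also the gene with the most closed peaks. Of 52 peaks assigned to it 15 fell and 1 rose, the fallen ones by a median of -0.656. The megabase around it, chr2:21000001-22000000, had 17 of its 55 peaks fall and 1 rise, and the mean level of its peaks was 16.7 CPM at 2 µM and 20.9 CPM at 0 µM. At 10 µM it was 6.93 CPM. APOB RNA fell by 1.16 on the log2 scale (adjusted p = 0.0269), a call lost without RNA replicate 1 or 2 at 2 µM (adjusted p = 0.124 and 0.122) or replicate 1 at 0 µM (0.0579).

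Of 1045 megabase windows with at least 20 peaks, the one with the largest share of rises was chr7:130000001-131000000, where 24 of 43 peaks rose. It holds most peaks of LINC-PINT, a noncoding RNA induced by p53, which had 22 risen of 34 peaks, with a median rise of 1.3 among the risen. SEPTIN9 had 21 risen of 51, ANKRD11, a chromatin regulator, 20 of 30, and the cytolinker gene DST 20 of 33. MIR3648-2 had 18 of 19, but this locus has near-identical copies, so its reads could belong to another copy. By chromosome, rises ran from 20.3% of the peaks on chromosome 20 to 7.84% on X, where as many fell.

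Of 45 promoter peaks of p53 target genes 4 rose (8.89%, against 7.04% of all promoter peaks), and of all 116 peaks of these genes 24 rose (20.7%, against 15.5% of all peaks) and 4 fell. The number of rises among these was 14 under DESeq2, 13 without 0 µM replicate 2, and 17 to 27 under the other settings. DDB2, a damage sensor of nucleotide excision repair, had the clearest rise: its promoter peak (chr11:47234191-47234691) held 20.3, 24.1 and 19.4 CPM at 2 µM, against 6.06, 4.08 and 4.73 CPM at 0 µM, with no overlap (log2 2.12, SE 0.208, adjusted p = 1.4e-08). FDXR, a mitochondrial reductase, rose by 1.46 (SE 0.195, adjusted p = 1.93e-06). PLK2, a stress-responsive kinase, rose by 1.14 (adjusted p = 0.00306), a call lost after loess scaling (adjusted p = 0.0666). DDB2 and FDXR RNA did not pass (adjusted p = 0.794 and 0.958). PLK2 RNA rose by 1.04 (adjusted p = 0.0366). That RNA call was lost in the blocked fit (adjusted p = 0.0649) and without RNA replicate 1 or 2 at 2 µM or at 0 µM. It was also lost without any 1 of the 10 µM RNA libraries.

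Machinery of DNA methylation gave 3 risen and 2 fallen of 32 promoter peaks. These shares, 9.38% and 6.25%, are near the 7.04% and 5.01% of all promoter peaks. The 3 rises were 2 and the 2 falls 1 without 2 µM replicate 3, and falls were 4 with blocked replicate numbers. DNMT3A, a de novo methyltransferase, had a promoter peak (chr2:25250246-25250746) with 12.7, 13.4 and 13.5 CPM at 2 µM, against 7.28, 5.57 and 4.36 CPM at 0 µM. The groups did not overlap, and it rose by 1.23 (SE 0.214, adjusted p = 7.9e-05). MBD1, which binds methylated CpG, rose by 2.46 (SE 0.363, adjusted p = 7.97e-06), with 5.84, 6.53 and 5.86 CPM at 2 µM and 0.485, 0.816 and 1.89 CPM at 0 µM. ZBTB38, another reader of methylated DNA, fell by 0.74 on the log2 scale (SE 0.175, adjusted p = 0.0021). UHRF1, which guides the maintenance methyltransferase, changed by -0.65 (adjusted p = 0.0101), a call lost without 2 µM replicate 3 (adjusted p = 0.0666).

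Sulfur metabolism gave 6 risen (15.4%, against 7.04% of all promoter peaks) and 1 fallen of 39 promoter peaks, and 5 to 7 rises in each of the other fits. Falls there numbered 5 without either 10 µM library and 7 with blocked replicate numbers. SQOR, a mitochondrial oxidase of hydrogen sulfide, held 9.97, 12 and 9.68 CPM at 2 µM, against 5.09, 1.9 and 3.98 CPM at 0 µM, at one of its 2 promoter peaks, and rose by 1.60 (SE 0.265, adjusted p = 3.88e-05). The other, stronger one held 30.6, 32.3 and 31.4 CPM at 2 µM and 33.2, 36.2 and 33.7 CPM at 0 µM (log2 -0.13, adjusted p = 0.526). MPST, which makes hydrogen sulfide from mercaptopyruvate, had 2 promoter peaks that rose by 1.13 and 1.03 (adjusted p = 0.000115 and 0.00026). CSAD, of the taurine pathway, rose by 2.02 (SE 0.357, adjusted p = 9.3e-05). In the BCL2 family 3 of 36 promoter peaks rose and 3 fell, 8.33% each, against 7.04% and 5.01% of all promoter peaks. Its falls were 1 when any 1 of the 2 µM libraries was left out, 0 without 0 µM replicate 2, 5 without 0 µM replicate 1 or either 10 µM library, and 8 with blocked replicate numbers, where 5 peaks rose. BCL2A1 held 6.87, 8.94 and 6.41 CPM at 2 µM, against 2.43, 1.77 and 1.89 CPM at 0 µM, a rise of 1.85 (SE 0.292, adjusted p = 2.08e-05) at a site where 10 µM libraries held 20.7 and 25 CPM. The other 3 peaks assigned to BCL2A1 were not called. BCL2L13, a mitophagy receptor, rose by 1.31 at one promoter peak (adjusted p = 0.000446). At a stronger promoter peak of the same gene, with means of 35.2 CPM at 2 µM and 46.2 CPM at 0 µM, the change was -0.39 (adjusted p = 0.0364). The anti-apoptotic BCL2 itself changed by 1.22 (adjusted p = 0.00527), a call lost without 2 µM replicate 3 (adjusted p = 0.0519) and after loess scaling (0.14).

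Of the 37 promoter peaks of histone genes 4 rose (10.8%, against 7.04% of all promoter peaks). Only 2 rose without 2 µM replicate 1 or 2 or without 0 µM replicate 2 or 3. In the fit of only the 6 libraries at 0 and 2 µM, 4 rose and 3 fell. H3C12, a histone H3 gene of the large cluster on chromosome 6, held 14.8, 13.8 and 14 CPM at 2 µM, against 2.18, 1.5 and 1.33 CPM at 0 µM, and rose by 3.11 (SE 0.292, adjusted p = 7.44e-09). Its RNA stood at 27 ± 5.68 CPM at 2 µM and 2.19 ± 1.3 CPM at 0 µM (SD, n = 3 each), a rise of 3.63 with an adjusted p of 0.000732. Reads of histone genes may be shared with near-identical copies, so both values are uncertain. At 10 µM this peak held 1.48 and 3.26 CPM. The other 3 called histone promoters, H2BC5, H2AC14 and H4C1, changed by 0.51 to 0.54. Under DESeq2 the calls of H2AC14 and H4C1 were lost (adjusted p = 0.0711 and 0.0869). The call of H2BC5 was lost without 2 µM replicate 1 or 0 µM replicate 2 (adjusted p = 0.0795 and 0.134), that of H2AC14 without 2 µM replicate 1 or 2 or 0 µM replicate 2 or 3 (0.059 to 0.139), and that of H4C1 without 2 µM replicate 2 or 0 µM replicate 1 or 3 (0.0739 to 0.112).

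Single promoters of other groups moved clearly. DHCR7, which catalyses the last step of cholesterol synthesis, held 36.8, 35.1 and 38.2 CPM at 2 µM, against 49.5, 55.3 and 50.6 CPM at 0 µM, a change of -0.49 (SE 0.133, adjusted p = 0.00663). CD40, a receptor of the TNF receptor family, held 19.6, 18.2 and 15.1 CPM at 2 µM and 6.31, 6.8 and 6.44 CPM at 0 µM, a rise of 1.39 (SE 0.189, adjusted p = 2.38e-06). The chemokine gene CCL20 changed by -0.76 (adjusted p = 0.00217), a call lost without 2 µM replicate 3 (adjusted p = 0.0506).

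PLK1, a mitotic kinase, gained accessibility just upstream of its start, with 25.8, 22.3 and 20 CPM at 2 µM and 9.22, 10.6 and 8.33 CPM at 0 µM (log2 1.23, SE 0.203, adjusted p = 3.73e-05), while 4 of the 40 promoter peaks of mitosis genes fell and no other rose. These shares, 10% fallen and 2.5% risen, are to be read against 5.01% and 7.04% of all promoter peaks. The falls were 2 without 2 µM replicate 2 and 7 without either 10 µM library. SPC25, a kinetochore protein, was one of the 4, at -0.56 (SE 0.141, adjusted p = 0.00403). Among AP-1 genes FOSL2 rose by 0.83 (SE 0.179, adjusted p = 0.000902) and the bZIP partner MAFG by 1.31 (SE 0.244, adjusted p = 0.00017). This list had 2 rises and 1 fall among 22 promoter peaks, and its shares of 9.09% and 4.55% are near those of all promoter peaks. KRT80, a keratin of epithelial cells, rose by 0.82 (SE 0.191, adjusted p = 0.00195). PDGFRB, a receptor listed as a marker of fibroblasts and stellate cells, held 35.1, 30.6 and 26.7 CPM at 2 µM and 62.3, 58.5 and 55.1 CPM at 0 µM, a change of -0.95 (SE 0.142, adjusted p = 9.34e-06). The promoter peaks of those markers summed to 47.5 to 53.6 CPM at 2 µM and 77.8 to 81.5 CPM at 0 µM, for 3 peaks of 2 of the 10 genes. Zinc finger genes, the largest family examined, had 11 rises and 13 falls among 446 promoter peaks (2.47% and 2.91%, against 7.04% and 5.01% of all promoter peaks). The rises were 7 without 2 µM replicate 1 or 0 µM replicate 2, 5 without 0 µM replicate 3 and 5 under DESeq2. The falls were 3 without 2 µM replicate 1, 6 without 0 µM replicate 2, 26 without either 10 µM library and 38 with blocked replicate numbers.

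For the other lists the counts are to be read against the 7.04% of all promoter peaks that rose and the 5.01% that fell. Interferon genes had 2 rises and 2 falls among 44 promoter peaks, genes of chemokines and NF-kappaB targets 2 and 3 among 36, epithelial adhesion and matrix genes 2 and 3 among 40, and cytosolic ribosomal protein genes 2 and 2 among 74. Rises numbered 2 of 46 for imprinted genes, 2 of 44 for genes often methylated in liver cancer, 2 of 52 for the integrated stress response and 2 of 12 for germ cell genes. Neither germ cell rise was called under DESeq2, without 2 µM replicate 2 or 3, or with any 1 of the 0 µM libraries left out. Of the germ cell genes tested in RNA, 11 of 23 rose, beside 3.22% of all genes tested. Only these 23 of the 81 listed genes were tested. A gene silent at 0 µM can pass the filter on low counts only through treated libraries, so the share describes the tested genes alone. Promoter peaks were found for 8 of the listed genes. Keratin genes had 4 rises (30.8%) and 1 fall among 13 promoter peaks, with 1 rise without 0 µM replicate 2 and 2 rises under DESeq2 and after loess scaling. Of 10 promoter peaks of metallothioneins, which bind zinc and copper, 2 fell. One was MT1F, with 27.5, 26.1 and 21.7 CPM at 2 µM and 31.5, 43.5 and 40.7 CPM at 0 µM (log2 -0.66, adjusted p = 0.00164).

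Promoters that opened were poor in CpG. RefSeq windows of 300 bases overlapped 9476 promoter peaks, among them 222 risen and 510 fallen ones of all 1391 risen and 991 fallen promoter peaks. The peaks without a window are not described here. The median window held 8 CpG sites at risen peaks, 29 at fallen and 27 at peaks that were not called. The ratio of observed to expected CpG was 0.6 or more in 28.8% of risen, 81.4% of fallen and 84.7% of uncalled ones. Of 410 windows with fewer than 5 CpG sites 15.9% rose and 8.05% fell, and of 3895 with 30 or more 0.359% rose and 6.34% fell. The median untreated level was 13.3 CPM in the CpG-poorest and 24.8 CPM in the CpG-richest group, so level and CpG content move together here, and the part of each in the result was not tested.

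**Figure D4:**
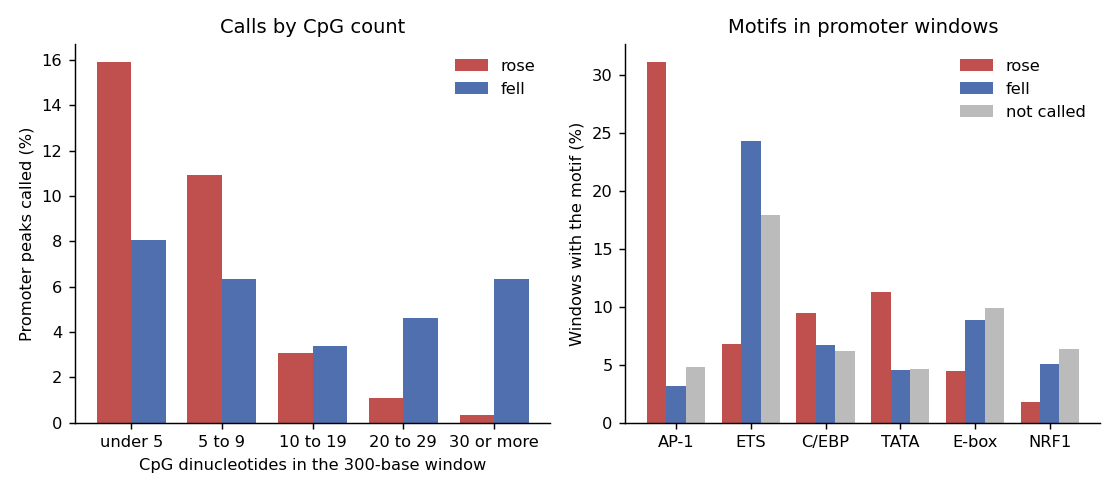
Left, share of promoter peaks that rose (red) or fell (blue) at 2 µM, in percent, by the number of CpG dinucleotides in the RefSeq window of 300 bases. Right, share of windows with each motif, in percent, for peaks that rose, fell or were not called: AP-1 stands at 31.1% of risen against 3.14% of fallen and 4.81% of uncalled windows.

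Motifs were searched by their letters on both strands: AP-1 as TGANTCA, ETS as CCGGAAG, C/EBP as TTGCNNAA, TATA as TATAAA, E-box as CACGTG, NRF1 as CGCATGC, CRE as TGACGTCA and HNF4 as CAAAGTCCA, none of which contains another. AP-1 letters stood in 31.1% of risen windows, 3.14% of fallen and 4.81% of uncalled ones, and in 7.71% of all 35116 windows of the table. ETS letters stood in 6.76% of risen, 24.3% of fallen and 17.9% of uncalled windows, and in 10.3% of all. TATA letters stood in 11.3%, 4.51% and 4.61% of the same 3 groups, but under 5 CPM in 19.4% of risen and 20.6% of uncalled windows, and from 5 to 10 CPM in 8.05% of risen and 8.91% of uncalled ones. The AP-1 shares also differed with the untreated level. Under 5 CPM the AP-1 letters were in 48.4% of 62 risen and 39.7% of 63 uncalled windows. From 5 to 10 CPM they were in 27.6% of 87 risen and 8.26% of 460 uncalled ones, and from 10 to 20 CPM in 28% of 50 and 4.94% of 2791. The ETS shares differed with the level too. Under 5 CPM they were 6.45% of risen and 1.59% of uncalled windows, and from 5 to 10 CPM 2.3% and 8.91%. From 10 to 20 CPM they were 12% of risen, 12.4% of fallen and 13.5% of uncalled ones. Among fallen and uncalled windows they were 23.1% and 20.8% from 20 to 40 CPM, and 32.4% and 21.6% from 40 CPM upwards.

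The peaks at the 4 windows printed for their AP-1 letters show the sizes. SEPTIN9 held 16.2, 22.7 and 14.2 CPM at 2 µM, against 2.67, 2.45 and 3.6 CPM at 0 µM (log2 2.56, SE 0.243, adjusted p = 8.76e-09). NDST1 held 12, 22.3 and 14.7 CPM at 2 µM and 2.67, 3.26 and 2.46 CPM at 0 µM (log2 2.49, SE 0.247, adjusted p = 1.6e-08). HRH1 held 11.3, 11 and 10.9 CPM at 2 µM and 2.91, 4.76 and 4.73 CPM at 0 µM (log2 1.37, SE 0.218, adjusted p = 2.38e-05). None of these overlapped between groups. S100A2 held 9.28, 11 and 13.1 CPM at 2 µM and 6.31, 6.93 and 6.25 CPM at 0 µM. Its change of 0.81 (adjusted p = 0.0059) was lost without 2 µM replicate 3 (adjusted p = 0.101).

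Most genes with a called promoter peak were not called in RNA. A gene that was not called in RNA is not shown to be unchanged. Of all 18999 genes tested in RNA 611 rose, 3.22%, and 202 fell, 1.06%. Of 1068 tested genes with a risen promoter peak, 112 rose in RNA (10.5%) and 10 fell (0.936%). With a fallen promoter peak, 9 of 862 genes rose in RNA (1.04%) and 23 fell (2.67%). The 74 tested genes with both a risen and a fallen promoter peak are counted in both groups. Where no promoter peak was called, 179 of 9091 genes rose (1.97%) and 129 fell. The median RNA change was 0.103 for risen, -0.141 for fallen and -0.0332 for uncalled promoters. When genes that also had a fallen promoter peak were left out, RNA rose at 108 of 994 genes with a risen one (10.9%). Among those whose promoter peak rose by 1 or more on the log2 scale, RNA rose at 40 of 451 (8.87%).

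**Figure D5:**
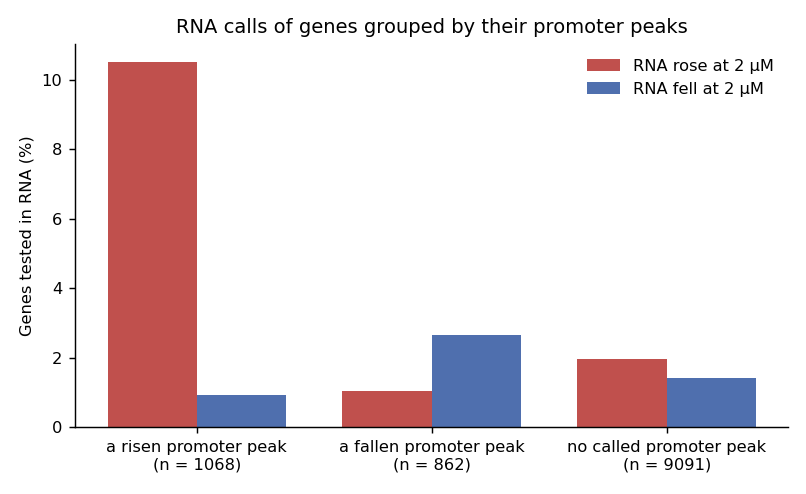
Share of genes tested in RNA, in percent, whose RNA rose (red) or fell (blue) at 2 µM, for genes with a risen, a fallen or no called promoter peak (n under each name). RNA rises reach 10.5% with a risen promoter peak and 1.04% with a fallen one. The 74 genes with both are counted in the risen and in the fallen group.

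Of all 10947 genes tested in RNA that had a promoter peak, 9.76% had a risen and 7.87% a fallen one. Read from the other side, 112 of the 296 genes with risen RNA and a promoter peak (37.8%) had a risen one and 9 (3.04%) a fallen one, and of the 160 with fallen RNA 10 (6.25%) had a risen and 23 (14.4%) a fallen one. Of 35 such genes with RNA that rose from a mean under 0.1 CPM, 19 (54.3%) had a risen promoter peak. Among all 139 tested genes with a promoter peak and an untreated RNA mean under 0.1 CPM, 37 had a risen one. Genes this low at 0 µM cannot pass the filter on low counts without treated libraries, so these counts describe the tested genes alone. The count of 112 was 69 with blocked RNA replicate numbers. It was 47 without RNA replicate 1 at 2 µM, 44 without replicate 2 at 2 µM, 55 without replicate 1 at 0 µM and 70 without replicate 2 at 0 µM. The 23 genes down in both numbered 55 in the blocked fit, 4, 3 and 69 without RNA replicates 1, 2 and 3 at 2 µM, 12 and 54 without replicates 1 and 3 at 0 µM, and 14 without 10 µM replicate 1 or 3. The 10 and 9 genes that went opposite ways were 17 and 9 in the blocked fit. Without RNA replicate 3 at 2 µM they were 20 and 16, without replicate 3 at 0 µM 22 and 15, without replicate 1 at 2 µM 4 and 3, without replicate 2 at 2 µM 4 and 4, and without replicate 1 at 0 µM 4 and 5. Without a 10 µM RNA library the 10 genes were 6, and without replicate 2 at 0 µM the 9 were 4.

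HSD17B1, which makes estradiol, was one of the clearest cases: its promoter peak held 30.6, 23.4 and 22.8 CPM at 2 µM, against 11.4, 15.5 and 13.6 CPM at 0 µM, and rose by 0.88 (SE 0.172, adjusted p = 0.000323). Its RNA stood at 24.6 ± 9.42 CPM at 2 µM and 1.16 ± 0.353 CPM at 0 µM (SD, n = 3 each), a rise of 4.40 (adjusted p = 6.88e-05). At 10 µM the peak held 4.02 and 4.35 CPM, below the untreated libraries. RAB34 behaved alike: its peak rose by 1.08 (SE 0.239, adjusted p = 0.00117) and its RNA by 2.93 (adjusted p = 0.000524), with 20.8 ± 4.32 CPM at 2 µM and 2.72 ± 1.13 CPM at 0 µM. SPOCD1, a gene of germline DNA methylation in mouse, rose by 1.29 at its promoter (SE 0.25, adjusted p = 0.000283) and by 3.53 in RNA (adjusted p = 0.000732).

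LXN held 15.5, 13.8 and 8.59 CPM at 2 µM and 4.37, 2.99 and 4.55 CPM at 0 µM at its promoter, a rise of 1.62 (SE 0.268, adjusted p = 3.98e-05). Its RNA had 108 reads over the 3 libraries at 2 µM and 0 at 0 µM. The noncoding RNA HCG11 rose at its promoter by 0.98 (SE 0.209, adjusted p = 0.000791), and its RNA had 501 reads at 2 µM and 6 at 0 µM. For SQOR the RNA rise was 1.28 (adjusted p = 0.00698), and for BCL2A1 2.82 (adjusted p = 0.0122), a call lost without RNA replicate 1 or 2 at 2 µM (adjusted p = 0.0528 and 0.0607) and in the blocked fit (0.0532).

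DIXDC1 fell in both readouts. Its CpG-rich promoter held 11, 10.7 and 14.5 CPM at 2 µM, against 23, 24.6 and 19.9 CPM at 0 µM, without overlap (log2 -0.85, SE 0.174, adjusted p = 0.00052). Its RNA stood at 34.2 ± 7.35 CPM at 2 µM and 90 ± 3.53 CPM at 0 µM (SD, n = 3 each; log2 -1.40, adjusted p = 0.00182). PLA2G3, a secreted phospholipase, changed by -1.55 at its promoter (SE 0.232, adjusted p = 9.71e-06) and had 14 RNA reads at 2 µM and 153 at 0 µM. That RNA call was lost without RNA replicate 2 at 2 µM (adjusted p = 0.0531). Large promoter rises came with no call in RNA at PANK4 (adjusted p = 0.99), TSC2 (0.472), PRKCZ (0.796) and GATA2 (0.627), and the NR5A2 fall likewise (0.3).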

How the data were processed

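ATAC values are raw counts of reads per peak of 501 bp and RNA values raw counts per gene, both deposited by the authors. The genome build hg38 and the tools HISAT2 2.2.1, DiffBind 3.12.0, DESeq2 1.42.1 and HTSeq 2.0.4 are listed, without a role, per the submitters' processing notes; the peak caller and whether RNA counting used strand are not given in the sources used here. Peak annotation and gene symbols are those the authors deposited, and so is the dose in each peak's name. The score the authors deposited with each peak was not used. The reads carry no molecular identifiers.

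Here the quasi-likelihood test of edgeR 4.0.16 (R 4.3.3; alternatives with limma 3.58.1 and DESeq2 1.42.0) was applied to the counts, in a fit of 8 ATAC and a fit of 9 RNA libraries, with a mean per dose, TMM scaling and the package's filter on low counts, which kept all 58372 peaks and 18999 of 63187 genes. P-values were adjusted by Benjamini-Hochberg over all features of the assay, and an adjusted p under 0.05 was called. Log2 changes use a prior count of 0.125; each SE is the size of the log2 change divided by the root of its F statistic. The steps were tested on simulated data. Peaks and RNA were joined by Ensembl gene identifier, which matched 12376 of 12381 genes with a promoter peak, of which 10947 were tested in RNA. RNA replicate numbers paired the libraries of 2 and 0 µM (correlation of deviations 0.374, 0.422 and 0.378), so blocked RNA values are given where they change a result. Promoter windows were matched to peaks by gene symbol and overlap.

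The members and the gene lists were chosen with earlier results of these data known. Peaks named are, per direction, the 12 promoter and 8 other peaks of largest change whose groups do not overlap and whose higher group averages 2 CPM or more, peaks within 5000 bp of BCL2A1 or SQOR, up to 4 promoter peaks per gene list by p, up to 10 genes per combination of promoter and RNA call, the 5 genes with most called peaks, and the 3 smallest p per part of the genome; the text gives a part of them, and a few are not reported here. The peaks at LXN, HRH1, S100A2, NDST1, DIXDC1 and the printed start of SEPTIN9 were picked after their values were seen.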

Additional observations from a re-analysis of the deposited data

How the results depend on the processing

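Other fits moved the counts. The 9044 rises were 5825 under DESeq2, 5798 at an adjusted p under 0.01, 4603 with a log2 change of 1 or more required, and 5324 to 9120 with a single library left out. Promoter rises (1391) were 852, 862, 601 and 787 to 1394 under the same settings. The 4260 falls were 6919 in a fit of the 6 libraries at 0 and 2 µM, 7798 with the replicate block, 1978 at 0.01, 513 at a change of 1 or more, and 2405 to 7051 with a library left out; promoter falls (991) were 2077, 2679, 286, 30 and 450 to 2145, and 1501 with RLE size factors. ATAC replicate numbers did not pair the libraries (correlations 0.147, -0.00397 and -0.0559), so the block there is only a number. Loess scaling changed the sign of 6 of the called peaks, and no other setting changed any.

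In RNA, genes with a risen promoter peak and risen RNA (112) were 69 with the replicate block and 44 to 154 with a library left out. Those with a risen peak and fallen RNA (10) were 19 under DESeq2, 5 with total counts, 29 without the filter, 17 with the block and 4 to 22 with a library left out; with a fallen peak and risen RNA (9) they were 15, 20 and 3 to 16 under DESeq2, total counts and leaving out a library; with both fallen (23) they were 56, 12, 90, 55 and 3 to 69. The difference in promoter read share (-2.4 points) was -3.43 to -1.47 with a library left out. For the peaks and genes named, 1429 peak values under other settings kept their side of the threshold, 20 lost the call and 7 gained one; for RNA these were 1019, 32 and 28, and none reversed.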
